A study of Arabidopsis thaliana with 4 samples.

Results

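Berberine bridge enzyme-like proteins are mostly secreted, FAD-linked oxidoreductases of plants, named after the enzyme of alkaloid synthesis in poppy relatives. Arabidopsis makes no such alkaloids, and the members that have been assigned a substrate there oxidise defence metabolites, monolignols or sugar fragments released from the cell wall, passing electrons to oxygen in several cases. Many of the genes lie side by side in tandem runs. The 10 genes described here were measured in whole seedlings of a RECA1-overexpressing line and of its wild type. They are the family genes AT1G26380, AT1G26390, AT1G26410 and AT1G26420 of one run on chromosome 1, AT1G30700 of another run on that chromosome, AT4G20860 and AT4G20830 on chromosome 4, and AT5G44380, AT5G44400 and AT5G44410 on chromosome 5. Each was found by its locus in the platform annotation, and each had 1 probe set that the annotation pairs with that gene alone, out of 22746 probe sets on the array.

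Total RNA of seedlings 2 weeks old was hybridised to 4 Affymetrix arrays. Col-0, the wild-type ecotype, had 2 samples, and T3 transgenic plants in the Col-0 background that overexpress RECA1 (AT1G79050), a plastid homologue of the bacterial recombinase RecA, had 2 samples and are called RECA1-OE. Both groups were untreated. Neither the promoter of the transgene nor the number of independent lines is given in the sources used here. The samples are labelled as biological replicates, with nothing on separate growth or harvest. The p-values therefore measure only the spread between these samples. RECA1 had no probe set paired with it, so the labels were not checked against the transgene.

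Values are log2 MAS5 signals, so a difference of 1 is a doubling. Of the 22746 probe sets, the 13647 with the highest mean over all arrays were tested, and the lowest mean among them was 6.82. Across these, the arrays of a group correlated at r = 0.966 (Col-0) and 0.980 (RECA1-OE), and arrays of different groups at 0.882 to 0.924 (Pearson), with both values for Col-0 replicate 1 above both for Col-0 replicate 2. This is a description across probe sets that share their arrays. Seedling tissue was checked on leaf and root markers. The 5 of 8 leaf markers with a probe set of their own had signals between 13.27 and 14.62 on all arrays. Their summed linear signal was 97135 and 99998 in Col-0 and 92951 and 80494 in RECA1-OE. One of them, PSBW, fell by 0.53 ± 0.13 on the log2 scale (limma SE, adjusted p = 0.031), and any part of leaf content in the results below was not tested. The root marker PYK10, the only one of 9 measured, lay between 13.15 and 14.13. None of the flower, seed and senescence markers had a probe set of its own, so those tissues and stages were not analysed here.

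The 10 genes were chosen with their difference between RECA1-OE and Col-0 already known from these arrays. Their signals and differences are therefore given as a description, with no test. The limma fit over all 13647 probe sets, at an adjusted p under 0.05, called 8 of the 10 higher and 2 lower in RECA1-OE, where 9.94% of all tested probe sets were called higher and 9.97% lower. In all 10 genes the groups did not overlap, 8 with RECA1-OE higher and 2 lower, as was so for 65.0% of all tested probe sets, 29.9% higher and 35.1% lower. Nothing is read from these counts, since the choice of genes used the same contrast. The choice also left out AT2G34810, a family gene that was bright enough to be tested and was not called. All 10 genes passed the filter on dim signals, and AT1G26410 and AT1G26420 passed it only through their RECA1-OE arrays, since their Col-0 means lie below 6.82. The size of their fold changes is therefore uncertain. In RNA of whole seedlings, a change in the number of expressing cells and a change in RNA per cell cannot be told apart.

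The 4 chosen genes of the chromosome 1 run were far higher in RECA1-OE than in Col-0. Another family gene inside the run, AT1G26400, was too dim to be tested and is described below. In every mean and comparison that follows, the run stands for the 4 chosen genes. AT1G26380, known as FOX1, encodes an oxidase of the pathway from tryptophan to 4-hydroxyindole-3-carbonyl nitrile, a cyanogenic defence metabolite, and its transcript is a common marker of the response to oligogalacturonides and bacterial patterns. Its signals were 7.69 and 7.26 in the Col-0 arrays and 11.09 and 11.08 in the RECA1-OE arrays. The RECA1-OE arrays were nearly equal, and the groups were 3.61 ± 0.19 apart on the log2 scale (limma SE), or 12.2-fold.

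AT1G26390, the next gene of the run, had signals of 7.29 and 7.41 in Col-0 and 11.84 and 11.30 in RECA1-OE. Its difference of 4.22 ± 0.21 on the log2 scale (limma SE) was the largest of the 10 genes and ranked at position 6 from the highest among all 13647 tested probe sets. Unlike the other 3 chosen genes of the run, it was not lower in Col-0 replicate 2 than in Col-0 replicate 1.

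AT1G26410 had signals of 6.46 and 5.30 in Col-0 and 9.57 and 9.48 in RECA1-OE, a difference of 3.64 ± 0.35 on the log2 scale (limma SE). AT1G26420, at the far end of the run, had signals of 6.58 and 5.36 in Col-0 and 9.51 and 10.002 in RECA1-OE, a difference of 3.78 ± 0.38. In both genes the Col-0 arrays were more than 1 log2 unit apart, with replicate 1 the higher, and the groups were far from overlapping. The AT1G26420 fold of 13.8 became 20.98 when Col-0 replicate 1 was left out and 9.03 when Col-0 replicate 2 was. That of AT1G26410, 12.5, became 18.6 and 8.37. With 16 added to each linear signal before log2, which damps dim values, the folds were 9.90 for AT1G26410 and 11.01 for AT1G26420. Substrates of these 2 proteins and of AT1G26390 are not stated here.

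**Figure D1:**
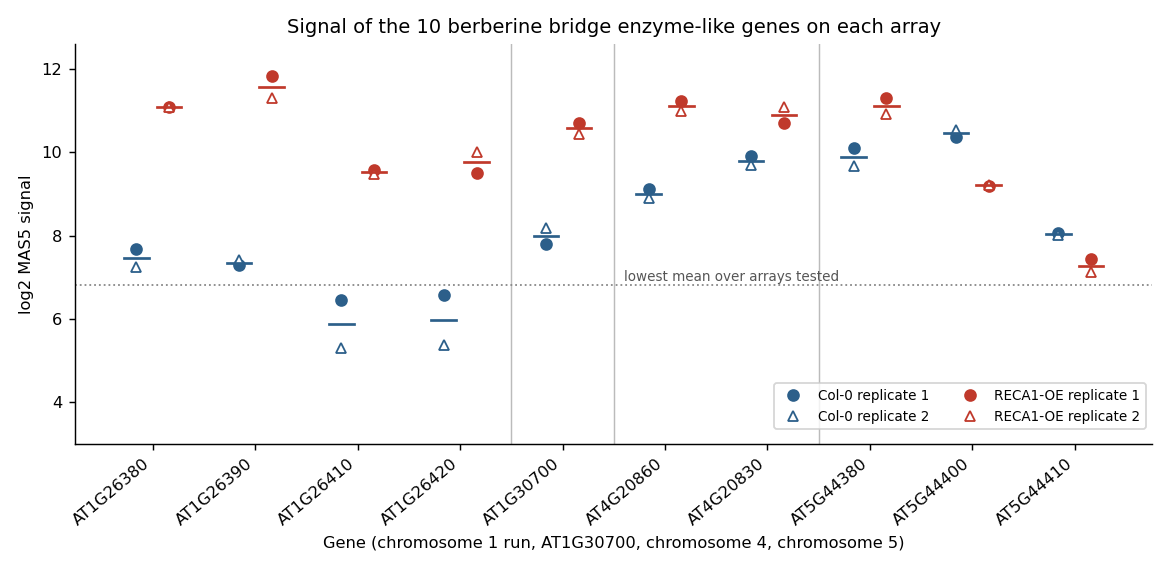
Log2 MAS5 signal (vertical axis) of each of the 10 genes (horizontal axis) on each array. Filled circles are replicate 1 and open triangles replicate 2, blue for Col-0 and red for RECA1-OE, short bars are the means of 2 arrays, the dotted line is the lowest mean over arrays that was tested (6.82), and vertical lines part the 4 chromosomal groups. The red points lie above the blue ones in 8 genes and below them in AT5G44400 and AT5G44410.

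AT1G30700, which opens a separate run of family genes on chromosome 1, was higher in RECA1-OE by a smaller amount than the first run. Its signals were 7.80 and 8.19 in Col-0 and 10.71 and 10.43 in RECA1-OE. The difference was 2.58 ± 0.19 on the log2 scale (limma SE), or 5.98-fold. The largest difference between any RECA1-OE array and any Col-0 array was 2.92 for this gene, just under the smallest one of AT1G26420, 2.93. Of the 4 tandem genes, AT1G26420 had the smallest such minimum.

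The chromosome 4 genes encode enzymes whose substrates are wall fragments. AT4G20860, known as CELLOX1, oxidises cellodextrins, the soluble fragments of cellulose. It had signals of 9.11 and 8.90 in Col-0 and 11.24 and 11.002 in RECA1-OE, a difference of 2.12 ± 0.16 on the log2 scale (limma SE), or 4.35-fold. Its groups stood apart by many times the distance between arrays of a group.

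AT4G20830, known as OGOX1, oxidises oligogalacturonides, the fragments of pectin that act as danger signals, and the oxidised forms are weaker elicitors. It had signals of 9.91 and 9.68 in Col-0 and 10.70 and 11.10 in RECA1-OE. Its difference of 1.10 ± 0.18 on the log2 scale (limma SE), or 2.15-fold, was smaller than that of AT4G20860, and the single array differences of the genes did not overlap. Without RECA1-OE replicate 2, the array with the higher value, it was 0.90 and was no longer called. A second probe set that the annotation pairs with both AT4G20830 and its family neighbour AT4G20840, and so with neither alone, went the other way. Its signals were 8.36 and 8.37 in Col-0 and 7.75 and 7.97 in RECA1-OE. That difference of -0.51 ± 0.18 did not pass, with a limma adjusted p of 0.083, and the transcript behind it cannot be assigned.

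On chromosome 5 the genes of a single run differed in direction. AT5G44380 was higher in RECA1-OE, with signals of 10.11 and 9.68 in Col-0 and 11.30 and 10.91 in RECA1-OE. Its difference was 1.21 ± 0.20 on the log2 scale (limma SE), or 2.31-fold, and it was 1.01 without RECA1-OE replicate 1, where it was no longer called. In each group replicate 1 had the higher value, and the groups did not overlap.

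AT5G44400 was lower in RECA1-OE, with signals of 10.36 and 10.54 in Col-0 against 9.19 and 9.22 in RECA1-OE. Its difference was -1.25 ± 0.15 on the log2 scale (limma SE), a 2.37-fold lower signal, and arrays of a group lay within 0.2 of each other. The adjoining gene AT5G44410 had signals of 8.06 and 8.02 in Col-0 and 7.44 and 7.12 in RECA1-OE, a difference of -0.76 ± 0.20. It was the smallest difference of the 10 genes and the one most easily lost. It was no longer called when either RECA1-OE array was left out, at -0.92 without replicate 1 and -0.60 without replicate 2, or when dim probe sets were kept. Between AT5G44380 and AT5G44400 lies AT5G44390, also of the family, whose signals of 7.04 and 6.19 in Col-0 and 6.88 and 6.95 in RECA1-OE overlapped and were too dim to be tested.

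Set side by side, the chromosome 1 run and the genes of chromosomes 4 and 5 did not share their size of change. The mean log2 difference was 3.82 over the 4 chosen genes of the run, with a range of 3.61 to 4.22. It was 0.48 over the 5 genes of chromosomes 4 and 5, with a range of -1.25 to 2.12. The difference between these means was 3.33, and lay between 3.03 and 3.63 for the 4 pairs of a RECA1-OE and a Col-0 array. On single arrays, the mean signal of the run minus that of the chromosome 4 and 5 genes had a within-group SD of 0.27. Relative to the mean over all arrays, the run stood at -1.57 and -2.24 in the Col-0 arrays and 1.92 and 1.89 in the RECA1-OE arrays. The chromosome 4 and 5 genes stood at -0.17 and -0.31 in Col-0 and 0.29 and 0.19 in RECA1-OE, a mean that adds 3 genes with a higher and 2 with a lower signal. The genes were chosen on this contrast and are not replicates, so the difference of means is a description.

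Ordered by their log2 difference, the genes run from AT1G26390 through AT1G26420, AT1G26410, AT1G26380, AT1G30700, AT4G20860, AT5G44380, AT4G20830 and AT5G44410 to AT5G44400. The differences of single RECA1-OE and Col-0 array pairs do not separate all neighbours in this order. Within the chromosome 1 run these ranges reach from 3.89 to 4.55 for AT1G26390 and from 3.40 to 3.83 for AT1G26380, and each overlaps those of AT1G26410 (3.02 to 4.26) and AT1G26420 (2.93 to 4.64), though not the other. AT1G30700 (2.24 to 2.92) overlapped AT4G20860 (1.90 to 2.34), and AT5G44380 (0.80 to 1.62) overlapped AT4G20830 (0.79 to 1.41). AT5G44410 (-0.94 to -0.58) and AT5G44400 (-1.36 to -1.14) did not overlap.

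**Figure D2:**
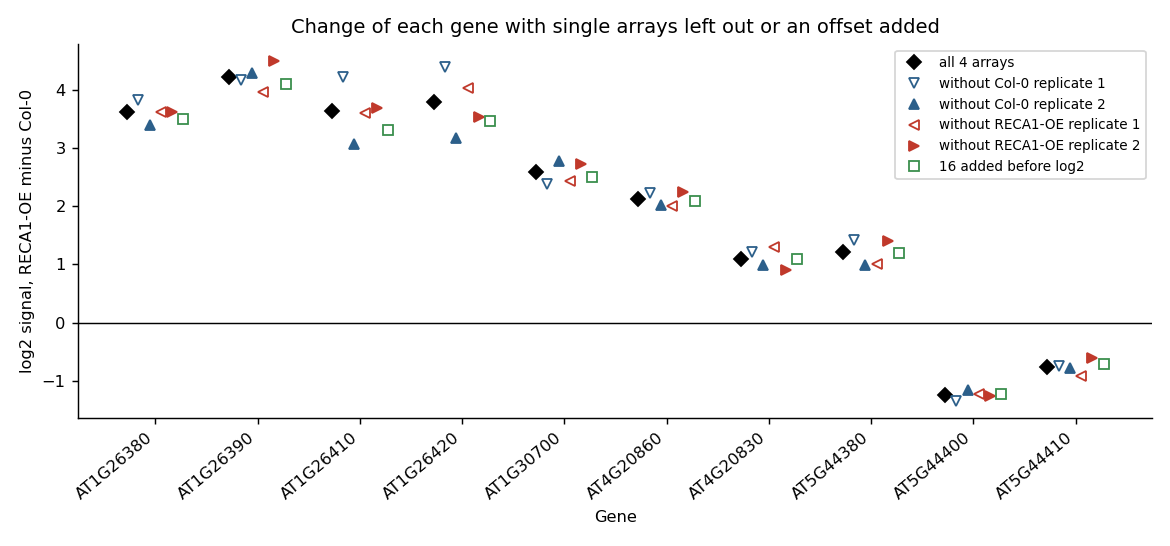
Difference in log2 signal between RECA1-OE and Col-0 (vertical axis) for each of the 10 genes (horizontal axis), with all 4 arrays (black diamonds), with 1 Col-0 array left out (blue), with 1 RECA1-OE array left out (red) and with 16 added to the linear signals (green). Every gene stays on its side of 0, and the widest spread is that of AT1G26420, between 3.17 and 4.39.

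The remaining family members were mostly too dim to compare. Of 17 further family loci, 12 had a probe set of their own, and only that of AT2G34810 was bright enough to be tested. AT2G34810 had signals of 8.02 and 8.78 in Col-0 and 8.33 and 8.67 in RECA1-OE. The groups overlapped and the difference was 0.10 ± 0.27 on the log2 scale, with a limma adjusted p of 0.812. Its sign depended on the arrays used, at -0.28 without Col-0 replicate 1 and -0.07 without RECA1-OE replicate 2. The other 11 loci were not tested, so they could not be called. AT2G34810 was not called by limma, and its unadjusted p was not under 0.05. Of all 13647 tested probe sets, limma called 19.9% in either direction, and 4824 had an unadjusted p under 0.05.

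AT1G26400 lies inside the chromosome 1 run, between AT1G26390 and AT1G26410. Its signals were 4.32 and 0.00, the floor, in Col-0 and 5.05 and 4.29 in RECA1-OE, so the groups overlapped at dim values and no change could be measured. AT1G30760, a monolignol oxidoreductase gene near the second chromosome 1 run, had signals of 6.34 and 5.84 in Col-0 and 6.34 and 5.90 in RECA1-OE, also below the tested range. A probe set paired with both AT1G30720 and AT1G30730, of the same run as AT1G30700 and assigned to neither, was brighter. It had signals of 8.10 and 8.56 in Col-0 and 9.77 and 9.80 in RECA1-OE. It rose by 1.45 ± 0.19 on the log2 scale, with a limma adjusted p of 0.0037.

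**Figure D3:**
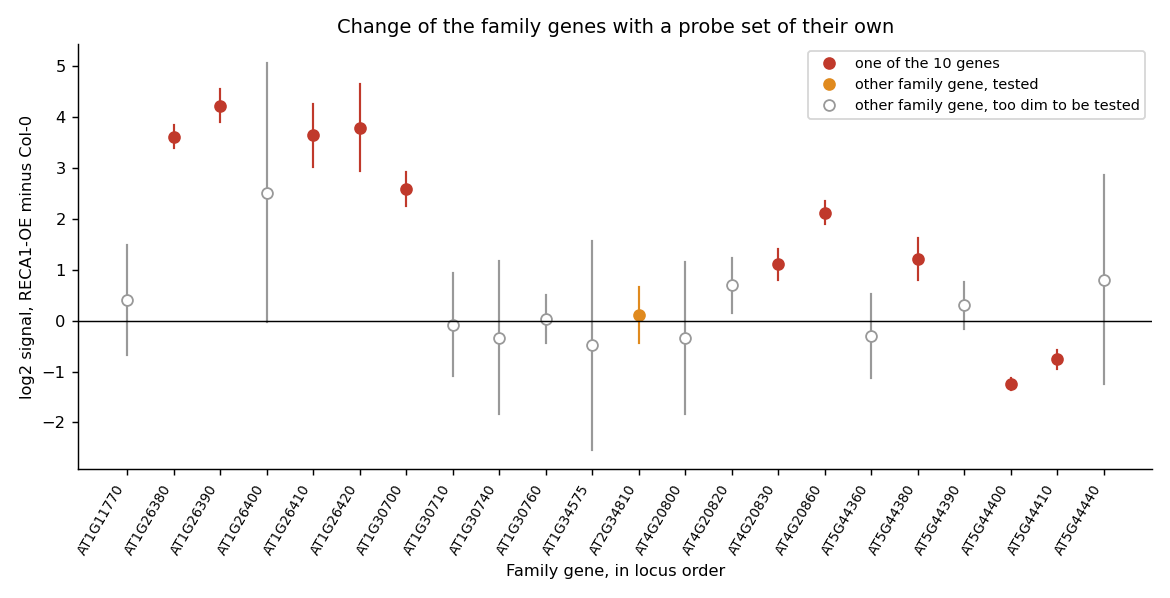
Difference in log2 signal between RECA1-OE and Col-0 (vertical axis) for the 22 family genes with a probe set of their own, in locus order (horizontal axis). Points are differences of group means, lines span the 4 differences between single arrays of the groups, red marks the 10 genes, orange AT2G34810 and open grey the 11 genes too dim to be tested. The dim AT1G26400 within the chromosome 1 run spans from -0.02 to 5.05.

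The tested genes that flank the family runs showed smaller changes than the chromosome 1 run. Not all were smaller than the changes of the chromosome 4 and 5 genes. The neighbour CML42 differed by 1.43 on the log2 scale, and the family gene AT4G20830 by 1.10. Among the 10 protein-coding genes on either side of each run, 71 genes outside the family were listed, 35 had a probe set of their own and 17 were tested. Of the 17, 3 rose, 0 fell and 14 did not pass, against the 19.9% of all probe sets called in either direction. By limma 5 of the 17 had an unadjusted p under 0.05, as did 4824 of all 13647 tested probe sets. The median log2 difference of the 17 was 0.02, and that of all tested probe sets was -0.04.

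The largest called rise among these neighbours was that of CML42 (AT4G20780), a calmodulin-like calcium sensor gene near the chromosome 4 genes. It rose by 1.43 ± 0.17 on the log2 scale, from 7.97 and 8.13 in Col-0 to 9.58 and 9.37 in RECA1-OE, with a limma adjusted p of 0.0024. AT1G30640 rose by 0.74 ± 0.18 and AT1G26270, at the far edge of the window around the first run, by 0.70 ± 0.15, with limma adjusted p values of 0.029 and 0.021. Both calls were lost when either RECA1-OE array was left out, and that of AT1G30640 also when dim probe sets were kept. AT1G26450, the tested neighbour closest after the first run, differed by -0.80 ± 0.28 and did not pass (limma adjusted p = 0.088). TPP2 (AT4G20850), a peptidase gene between AT4G20830 and AT4G20860, differed by 0.17 ± 0.15, with a limma adjusted p of 0.444. Next to AT5G44410 lies the defensin gene PDF1.2 (AT5G44420), with signals of 9.07 and 6.92 in Col-0 and 10.33 and 8.88 in RECA1-OE, which overlap. On the first run's near side no gene closer than 9 places had a tested probe set, so the immediate flank there was not measured.

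**Figure D4:**
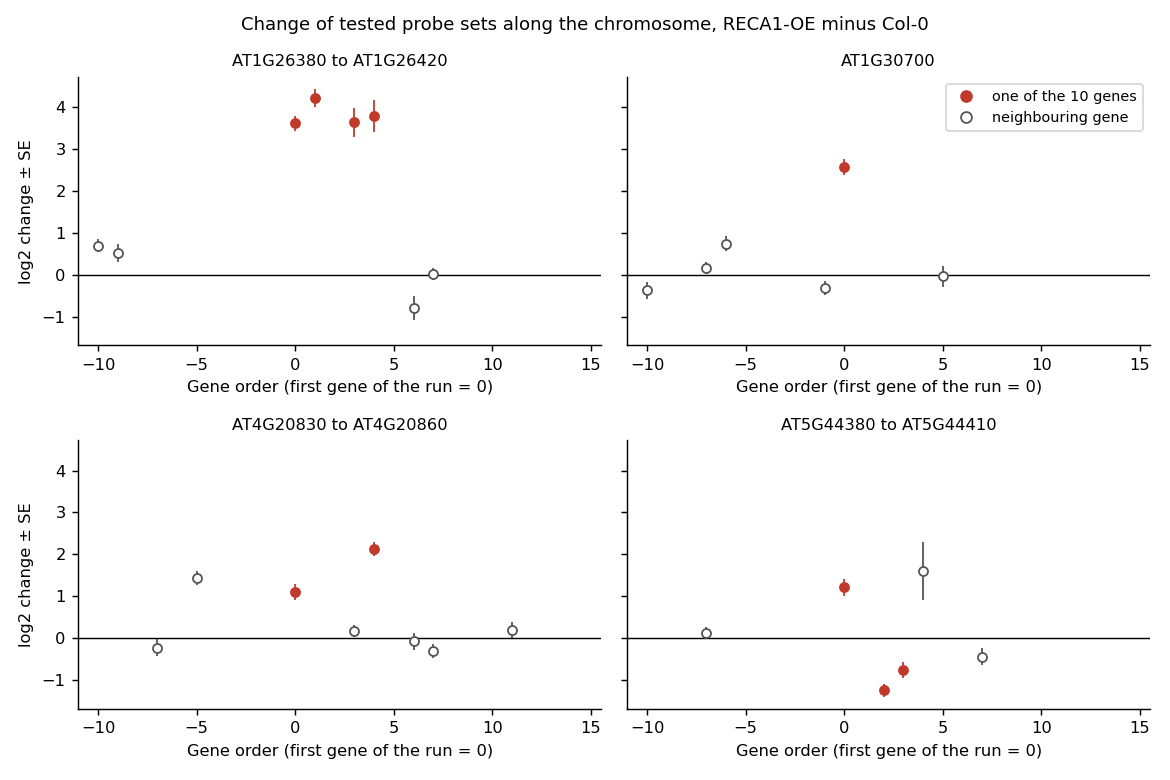
Log2 difference between RECA1-OE and Col-0 with limma SE (vertical axis) for tested probe sets along the 4 family runs, by gene order from the first gene of the run (horizontal axis, in genes). Red points are the 10 genes and open points neighbouring genes outside the family. The 4 red points of the first run lie between 3.61 and 4.22, and the open points of all panels between -0.80 and 1.61.

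Pathways in which these enzymes act were represented by few genes with a probe set of their own. Of 19 genes of tryptophan-derived defence metabolites, only AT2G04400 was measured. The list covers the pathway of FOX1 and its branches, and includes genes of tryptophan synthesis such as AT2G04400. It encodes indole-3-glycerol phosphate synthase, which makes the indole precursor of tryptophan. It rose by 1.42 ± 0.16 on the log2 scale, from 9.99 and 10.12 in Col-0 to 11.62 and 11.34 in RECA1-OE, with a limma adjusted p of 0.0020. This was the only gene of the list tested, where 9.94% of all tested probe sets were called higher. The cytochrome P450 genes CYP79B2, CYP79B3, CYP71A12, CYP71A13 and CYP82C2, which precede and follow FOX1, were not analysed here.

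Of 22 genes that perceive or respond to wall fragments and microbial patterns, 3 had a probe set of their own and 2 were tested. Both rose, where 9.94% of all tested probe sets were called higher. This list was chosen with earlier results of these data known. BIK1 (AT2G39660), a cytoplasmic kinase that relays signals from pattern receptors, rose by 1.25 ± 0.16 on the log2 scale, from 9.38 and 9.10 in Col-0 to 10.50 and 10.47 in RECA1-OE (limma adjusted p = 0.0032). AT1G56145, which encodes a receptor kinase for cellulose fragments, rose by 0.93 ± 0.21, from 6.75 and 6.97 to 7.82 and 7.76 (limma adjusted p = 0.021). That call was lost when either RECA1-OE array was left out and when dim probe sets were kept. The EF-Tu receptor gene EFR was too dim to be tested, at 6.17 and 5.93 in Col-0 and 6.22 and 6.66 in RECA1-OE.

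Of 23 genes of salicylate and jasmonate defence, 3 were tested and 0 were called by limma, 1 of them with an unadjusted p under 0.05. Of all 13647 tested probe sets, limma called 19.9% in either direction, and 4824 had an unadjusted p under 0.05. The defensin genes PDF1.2 and PDF1.2b (AT2G26020) differed by 1.61 ± 0.69 and 1.84 ± 0.67 on the log2 scale, with limma adjusted p values of 0.144 and 0.094. Their Col-0 arrays were more than 2 log2 units apart, replicate 1 being the higher in both. The PDF1.2b probe set is of the _x_at type, whose probes may also bind similar transcripts. The 2 genes may therefore not be independent readings. SAG101 (AT5G14930), a lipase-like immune regulator, differed by 0.86 ± 0.37, with signals of 7.23 and 8.45 in the RECA1-OE arrays (limma adjusted p = 0.145). These values moved with single arrays, and both defensin genes were called when replicate number was added to the fit as a block. With Col-0 replicate 1 left out PDF1.2 was at 2.68 and PDF1.2b at 3.10, and with Col-0 replicate 2 left out they were at 0.53 and 0.59. Calls with a Col-0 array left out are not given here, since limma then pooled the spread of all probe sets fully. SAG101 was at 1.47 and called without RECA1-OE replicate 1, and at 0.25 and not called without RECA1-OE replicate 2. It was at 0.92 without Col-0 replicate 1 and at 0.80 without Col-0 replicate 2.

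The genes whose pattern over the arrays was most like the chromosome 1 run were found among 7234 tested probe sets of single genes outside the family. Likeness was the root mean square difference, over the 4 arrays, from the mean profile of the run, each profile centred on its own mean. The nearest was AT1G78410, a VQ-motif gene, at 0.20 log2 units, with signals of 6.04 and 5.36 in Col-0 and 9.06 and 9.23 in RECA1-OE. Then came AT5G52750, with a heavy-metal-associated domain, at 0.25, the transcription factor gene WRKY53 (AT4G23810) at 0.25 and the carboxylesterase-family gene AT1G68620 at 0.25. AT3G18250, AT5G52760, AT5G38900 and AT1G24140 followed at 0.32 to 0.46. The Col-0 means of AT1G78410, WRKY53, AT5G52760 and AT1G24140 lie below 6.82, at 5.70, 6.30, 6.25 and 5.62. Like AT1G26410 and AT1G26420 of the run, they passed the filter only through their RECA1-OE arrays.

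Within the family, the genes of the run lay between 0.13 (AT1G26380) and 0.39 (AT1G26390) from their own mean. AT1G30700 lay at 0.73, AT4G20860 at 0.87, AT5G44380 at 1.31 and AT4G20830 at 1.37. AT5G44410 and AT5G44400 lay farthest, at 2.30 and 2.55. With 4 arrays in 2 groups, this distance mostly follows the size of the group difference, and it is a description.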

How the data were processed

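The deposited values are log2 signals of each probe set, for which the submitters' processing notes name MAS5 without a version. MAS5 scales each array by 1 factor, and its dim signals are noisy. RNA was primed with oligo(dT) and labelled with biotin, per the labels' protocols. Detection calls were not used here. The number of arrays limits the precision.

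Linear signals below 1 were set to 1, and the 9099 probe sets with the lowest mean (40%) were left out. RECA1-OE was compared with Col-0 by limma 3.58.1 (R 4.3.3; lmFit, two-sided, eBayes with trend). P-values were adjusted by Benjamini-Hochberg over 13647 probe sets. The fit was tested on simulated data. Errors of single genes are limma's SE.

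The annotation pairs 13513 probe sets with 1 gene, 503 with several and 8730 with none, and 13436 matched TAIR10.1 by Entrez ID. That assembly gave names and gene order only. The brightest probe set stood for a gene.

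The 10 genes and all lists were chosen with earlier results of these data known. The genes named are these 10, up to 4 genes of each list by size among those called and then by p, and the 8 most like the chromosome 1 run. Other genes with values illustrate a neighbour or a dim signal and were chosen after their values were seen.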

Additional observations from a re-analysis of the deposited data

How the results depend on the processing

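Results were recomputed with quantile normalization, median centring, no filter on dim probe sets, the lowest 60% left out, 16 added before log2, a replicate block, a fit without the mean-variance trend, an adjusted p threshold of 0.1 and each array left out. Each of the 10 genes kept its direction wherever it was tested. The count of 10 called genes was 9 without the filter and between 8 and 10 with single arrays left out; with the lowest 60% left out 7 were tested and called, and the difference between the chromosome 1 run and the chromosome 4 and 5 genes could not be computed. Elsewhere that difference was between 3.07 and 3.59. The 2716 probe sets called became 1787 without the filter and 746 to 3906 with single arrays left out. The 2 wall fragment and pattern genes became 1 without the filter and 1 with the lowest 60% left out, and were 1 to 2 with single arrays left out. The 0 salicylate and jasmonate genes became 2 with the replicate block, PDF1.2 and PDF1.2b (limma adjusted p = 0.0066 and 0.048), 1 at the threshold of 0.1 and 0 to 3 with single arrays left out. The 3 neighbours became 1 to 5 with single arrays left out. AT2G34810, at 0.10 with all arrays, was between -0.28 and 0.48 with single arrays left out, and negative without Col-0 replicate 1 (-0.28) and without RECA1-OE replicate 2 (-0.07). Some of these settings had fewer samples or other probe sets tested. The cause of the shifts was not tested for any setting. With a Col-0 array left out, limma pooled the spread of all probe sets fully, so calls gained there carry little weight.

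The replicate numbers pair nothing in the labels. Deviations of same-numbered arrays from their group means had r = -0.06 across probe sets. With the replicate block 2390 probe sets were called, and all 10 genes were.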

Other observations

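The shikimate and tryptophan pathways supply the tryptophan from which the FOX1 pathway starts. A list of their genes was drawn up after the values were seen. Of its 27 genes, 6 had a probe set of their own and 5 were tested, of which 1 rose, 1 fell and 3 did not pass. Of all tested probe sets, 9.94% were called higher and 9.97% lower. Beside the rise of AT2G04400, its homologue AT5G48220 fell by 0.69 ± 0.15 on the log2 scale, from 9.66 and 9.85 in Col-0 to 9.06 and 9.07 in RECA1-OE (limma adjusted p = 0.022). That fall was not called when either RECA1-OE array was left out, at -0.69 in both cases. AT1G22410, for the first enzyme of the shikimate pathway, differed by 0.41 ± 0.14 (limma adjusted p = 0.083).

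A list of receptor kinases and related proteins that bind or may bind wall fragments and chitin was also drawn up after the values were seen. Of its 34 genes, 11 had a probe set of their own and 4 were tested. Of these, 2 rose and 2 did not pass, where 9.94% of all tested probe sets were called higher. Beside AT1G56145, the wall-associated kinase-like gene AT2G23450 rose by 0.94 ± 0.17 on the log2 scale, from 8.94 and 8.65 in Col-0 to 9.72 and 9.73 in RECA1-OE (limma adjusted p = 0.0099). This call was lost when either RECA1-OE array was left out. The related genes AT1G16260 and AT1G69730 differed by 0.75 ± 0.24 and 0.71 ± 0.23, with limma adjusted p values of 0.069 and 0.068.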
